A study of Mus musculus with 8 samples.

Results

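The genotype by preparation interaction asks which genes differ between the libraries coded H and V by one amount in one genotype and by another amount in the other. It was measured over all 8 samples of the series, chosen by the column codes of the expression table, which holds 8 libraries in 4 levels of 2: CH, CV, GH and GV. The cells were SVZ-NSCs, that is neural stem cells of the subventricular zone in the mouse brain. Their genotype was WT (control) or S1pr1 deletion (S1PR1-deficient), and each genotype was combined with the high-density lipoprotein preparations ApoM-HDL or ApoM+HDL. The sources used here do not give age, strain, the driver of the deletion, dose or treatment time. Nor do the labels say whether replicates were separate cultures or animals, so p-values measure only the spread between these samples, which may be technical. Total RNA was sequenced after removal of ribosomal RNA.

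No sample label holds the codes. C was read as control, and G as S1PR1-deficient by elimination. Which preparation H or V stands for is not given in the sources used here, so the letters are kept throughout. The interaction is the H minus V difference in G minus the H minus V difference in C, in log2 units. The same number is the G minus C difference in H minus the G minus C difference in V, so its size does not depend on which letter stands for genotype. Its sign does depend on the letters: swapping H with V, or C with G, turns every positive interaction into a negative one. The directions below are therefore directions between codes, not between preparations.

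Sphingosine-1-phosphate (S1P) is a signalling lipid carried in plasma largely by apolipoprotein M on high-density lipoprotein. It acts on a family of G-protein-coupled receptors, of which S1PR1 couples to Gi, while other members of the family also couple to further G proteins. Signalling through these G proteins can raise immediate early genes and the targets of the transcription factor SRF and of the coactivator YAP.

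The transcript of the targeted gene did not separate the codes. S1pr1 stood at 25.4 and 23.2 CPM in CH, 20.7 and 16.02 in CV, 23.2 and 21.2 in GH and 22.2 and 22.4 in GV (CPM, the share of a library's reads scaled by TMM). The G libraries lay inside the range of the C libraries, and the lowest values were those of CV. Averaged over H and V, G minus C was 0.08 ± 0.08 (SE, log2; edgeR's quasi-likelihood test, adjusted p = 0.569). Without the CV2 library the difference was -0.01. The deleted part of the gene is not given in the sources used here, so these counts do not bear out the reading of G as S1PR1-deficient and do not show that reading to be wrong. The interaction of S1pr1 was -0.41 ± 0.16 (SE), adjusted p = 0.14, short of the threshold of 0.05 used throughout. Of the other receptors, S1pr2 had an interaction of 0.57 ± 0.22 (SE), adjusted p = 0.132, and S1pr3 of -1.51 ± 1.20 (SE), adjusted p = 0.489. S1pr2 stood at 5.96 and 6.03 CPM in CH, 8.48 and 8.09 in CV, 6.66 and 8.81 in GH and 6.57 and 7.83 in GV. S1pr3 had at most 0.337 CPM in any library, and S1pr4 and S1pr5 had too few reads to be tested. Of the 11 tested genes of S1P metabolism and transport, 0 passed in edgeR's test, 5 had an unadjusted p under 0.05 and DESeq2 called 2. Over all genes tested, 4285 of 17644 had an unadjusted p under 0.05 in edgeR's test.

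Libraries held 39619305 to 45698186 counted reads. Summed over the list, neural stem cell and radial glia genes stood at 5624 to 6455 CPM. Microglia markers summed to at most 0.3 CPM, erythroid markers to at most 0.429 and endothelial markers to 2.98 to 5.13. Mature neuron markers summed to 22.7 to 37.2 CPM. Over log2 CPM of the genes tested, libraries of the same level correlated at 0.981 to 0.987 and those of different levels at 0.978 to 0.986. The CV pair was the least alike of the 4, and on the third principal component CV1 and CV2 lay at opposite ends.

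The H minus V difference depended on the genotype code for 1296 of 17644 genes, or 7.35% of those tested, in edgeR's quasi-likelihood test with Benjamini-Hochberg adjustment. The interaction was positive for 694 genes (3.93%) and negative for 602 (3.41%). Of these, 48 and 37 were larger than 1 on the log2 scale, and the median size was 0.52 for the positive and 0.46 for the negative genes. The called genes include 9 positive and 9 negative genes with 0 reads in both libraries of a level. The fitted size of such genes depends on the prior count. Taken separately, H minus V passed for 1883 genes in C (10.7%) and for 226 in G (1.28%). Those counts use the libraries of the interaction and are given beside it, not as support for it. Across all genes tested, H minus V in C and in G, which share no library, had a Pearson correlation of 0.00 and a Spearman correlation of -0.05. Over the 10401 genes with a mean log2 CPM over 3, these were -0.04 and -0.13. The correlations are given as a description over genes, which are not independent replicates.

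**Figure D1:**
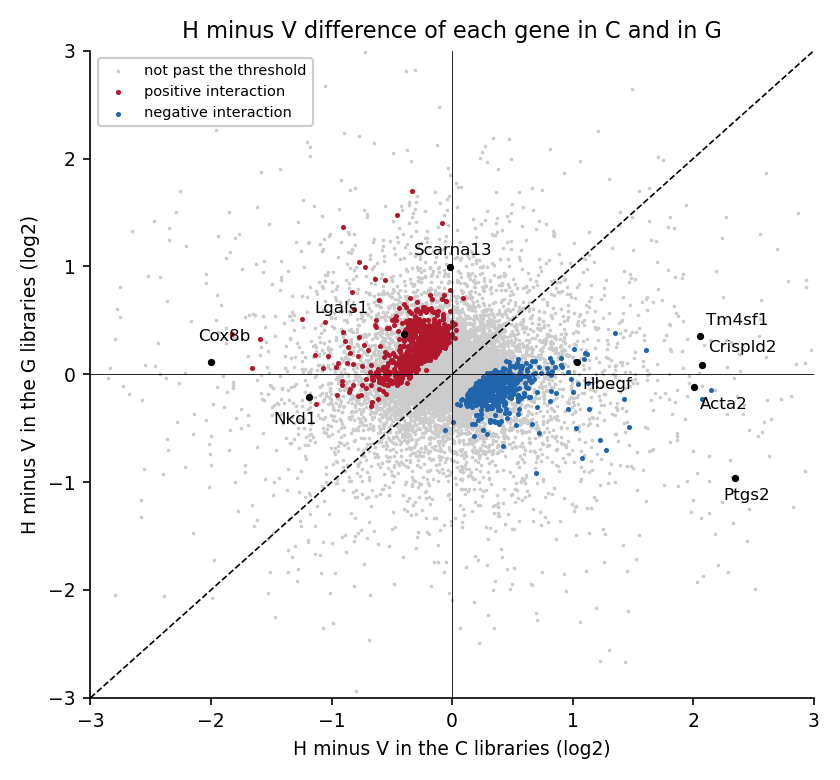
H minus V difference of each gene in the C libraries (x axis, log2) and in the G libraries (y axis, log2); the dashed line marks equal differences, and colour marks the genes past an adjusted p of 0.05 for the interaction. The negative genes lie right of the line and the positive genes left of it, by construction. Genes outside the axes (204) are not drawn.

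The count depended strongly on single libraries. Leaving out one library left between 66 and 1510 genes past the threshold: 1455 without CH1, 295 without CH2, 711 without CV1, 66 without CV2, 76 without GH1, 124 without GH2, 858 without GV1 and 1510 without GV2. In these fits 1 level has a lone library, which is assumed to vary like the others. All 1296 genes had the same sign in each of the 8 fits. Those fits reuse most of the libraries that chose the genes, so the shared sign is not independent support for the direction. The share of positive calls also moved with the scaling: it was 53.5% with TMM factors, 43.9% with median-ratio size factors in edgeR (592 positive and 757 negative) and 43.4% with DESeq2 (877 and 1145).

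The negative genes were as a group lowest in CV. After centring each gene on its 4 level means, their median was 0.08 in CH, -0.25 in CV, 0.02 in GH and 0.15 in GV (log2 CPM). CV was the level farthest from the others for 452 of the 602. The share over all genes tested is not given here, so this count shows no excess against it. Their median H minus V was 0.33 in C and -0.13 in G; the choice of genes fixes the order of those values.

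The 12 negative genes with the lowest p-values included ligands, cell-surface proteins and an immediate early gene. Hbegf encodes heparin-binding EGF-like growth factor, a ligand of the EGF receptor. Hbegf stood at 139 and 132 CPM in CH, 66.6 and 66.00 in CV, 95.5 and 93.6 in GH and 87.3 and 87.7 in GV. CH was the highest level and CV the lowest, with no overlap between any of the levels. H minus V was 1.03 in C and 0.11 in G, and the interaction was -0.92 ± 0.08 (SE), adjusted p = 0.000334. Kitl, or stem cell factor, is the ligand of the receptor Kit. It stood at 706 and 783 CPM in CH, 448 and 411 in CV, 629.5 and 619 in GH and 621 and 617 in GV. The 4 G libraries lay within a narrow band between CH and CV. Its interaction was -0.78 ± 0.09 (SE), adjusted p = 0.00168.

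Among surface and secreted proteins, Crispld2, a secreted cysteine-rich protein, stood at 21.8 and 19.8 CPM in CH, 4.68 and 5.19 in CV, 7.26 and 6.33 in GH and 6.31 and 6.52 in GV. CH was set apart from the 6 other libraries, and the interaction was -1.99 ± 0.18 (SE), adjusted p = 0.000334. Tm4sf1, a membrane protein of the L6 family, had the same order of CH and the rest. It stood at 20.4 and 20.8 CPM in CH, 4.63 and 5.26 in CV, 7.79 and 7.53 in GH and 5.56 and 6.40 in GV, with an interaction of -1.70 ± 0.18 (SE), adjusted p = 0.000812. Sdc4 encodes syndecan-4, a heparan sulfate proteoglycan. Its levels were 181 and 173 CPM in CH, 85.1 and 89.4 in CV, 114 and 115 in GH and 102 and 108 in GV, and the interaction was -0.90 ± 0.08 (SE), adjusted p = 0.000406. For Mfap3l, a membrane protein, H minus V was 0.96 in C and 0.02 in G, with an interaction of -0.94 ± 0.09 (SE), adjusted p = 0.000406. For Akap12, a scaffold that anchors protein kinase A, H minus V was 1.12 in C and 0.19 in G, with an interaction of -0.93 ± 0.10 (SE), adjusted p = 0.00162.

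In Cp and Ptgs2 the estimates of H minus V had opposite signs in C and in G, but the difference in G did not pass in either (edgeR's adjusted p = 0.263 for Cp and 0.119 for Ptgs2). Cp encodes ceruloplasmin, a copper-carrying ferroxidase. Cp stood at 171 and 181 CPM in CH, 124 and 120.3 in CV, 159 and 150.4 in GH and 172 and 170.4 in GV, and the interaction was -0.67 ± 0.08 (SE), adjusted p = 0.00302. Ptgs2 encodes cyclooxygenase-2, the inducible enzyme of prostaglandin synthesis. It stood at 2.63 and 3.16 CPM in CH, 0.54 and 0.592 in CV, 1.25 and 0.901 in GH and 2.32 and 1.88 in GV. CH lay above CV and GH below GV, with no overlap within either pair. The interaction was -3.31 ± 0.41 (SE), adjusted p = 0.00302, and rests on few reads: the CV libraries had 21 and 26.

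**Figure D2:**
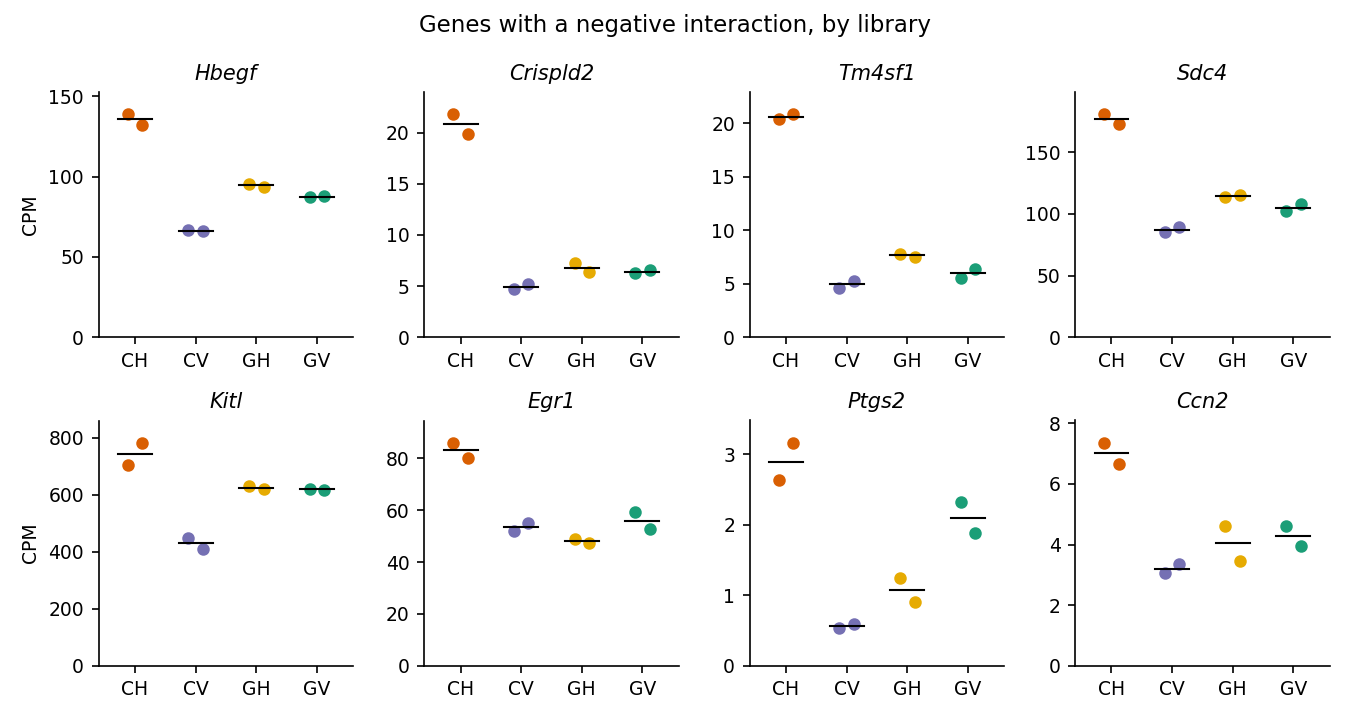
CPM of 8 genes with a negative interaction in each of the 8 libraries (points) by level, with the mean of the 2 libraries as a bar. CH lies above CV in all 8 panels, and the G levels lie close to each other in all but Ptgs2, where GV is above GH.

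Of the 16 immediate early genes tested, 2 were negative and 2 positive, or 25% called beside 7.35% of all genes. Their median interaction was -0.24 beside 0.02 over all genes. Egr1, a zinc-finger transcription factor, stood apart in CH. Egr1 stood at 86.02 and 80.3 CPM in CH, 51.9 and 55.1 in CV, 48.8 and 47.5 in GH and 59.1 and 52.7 in GV, with an interaction of -0.85 ± 0.11 (SE), adjusted p = 0.00304. Its estimates of H minus V also had opposite signs, 0.64 in C and -0.22 in G, and the latter did not pass (edgeR's adjusted p = 0.198). Fos, a subunit of the factor AP-1, had an interaction of -0.55 ± 0.15 (SE), adjusted p = 0.0401. The positive members were Myc, a growth-promoting factor, at 0.55 ± 0.11 (SE), adjusted p = 0.0155, and Ier3, at 0.65 ± 0.15 (SE), adjusted p = 0.0279. The list thus split in direction among its called members. Without CH2, CV2, GH1 or GH2, 1 of the 16 passed. Without 1 library at a time, Fos did not pass in any of the 8 fits.

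Of the 13 tested targets of YAP and SRF, 4 were negative and 0 positive, or 30.8% beside 7.35% of all genes. DESeq2 also called 4 negative members and 0 positive. Ccn1 and Ccn2 encode matricellular proteins long used as readouts of YAP. Ccn1 stood at 20.1 and 21.2 CPM in CH, 6.71 and 9.43 in CV, 11.95 and 11.9 in GH and 8.54 and 9.79 in GV, with an interaction of -0.97 ± 0.20 (SE), adjusted p = 0.019. Ccn2 stood at 7.36 and 6.66 CPM in CH, 3.06 and 3.35 in CV, 4.62 and 3.45 in GH and 4.61 and 3.95 in GV, with an interaction of -1.21 ± 0.26 (SE), adjusted p = 0.0221. CH was highest in both. Acta2, smooth muscle actin, stood at 8.43 and 5.36 CPM in CH, 1.65 and 1.78 in CV, 0.934 and 0.651 in GH and 0.596 and 1.14 in GV, with an interaction of -2.13 ± 0.48 (SE), adjusted p = 0.0246. Vcl, or vinculin, links integrins to actin and had an interaction of -0.38 ± 0.09 (SE), adjusted p = 0.0256. Acta2 did not pass with limma-voom. Of the 13 estimates, 8 were negative and 5 positive, and the list's median was -0.09. Without GH1 or without GH2, 0 of the 13 passed, without CH2 or without CV2, 1 did, and without CV1, 2 did.

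Promoter sequence is shown for the called members of that list to set these genes beside the motifs for which the list is known. Promoter sequence at RefSeq starts (GRCm38.p6) was at hand for 3 of the 4, Acta2, Ccn1 and Vcl. The 250 bases before the start are chr19:34255374-34255623 on the minus strand for Acta2, chr3:145649986-145650235 on the minus strand for Ccn1 and chr14:20929148-20929397 on the plus strand for Vcl. Capitals mark GGAATG on either strand, the core bound by the TEAD partners of YAP, and the CArG box, which SRF binds. The CArG box was searched as CC and GG around 6 bases of A or T, and in a looser form in which 1 of the 6 may be G or C. No GGAATG overlapped either form in the sequences shown.
Acta2: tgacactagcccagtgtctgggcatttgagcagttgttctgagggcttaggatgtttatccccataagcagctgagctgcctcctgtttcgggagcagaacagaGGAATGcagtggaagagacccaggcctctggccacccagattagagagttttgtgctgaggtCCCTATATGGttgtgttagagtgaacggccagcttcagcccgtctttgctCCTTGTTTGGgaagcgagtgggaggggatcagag
Ccn1: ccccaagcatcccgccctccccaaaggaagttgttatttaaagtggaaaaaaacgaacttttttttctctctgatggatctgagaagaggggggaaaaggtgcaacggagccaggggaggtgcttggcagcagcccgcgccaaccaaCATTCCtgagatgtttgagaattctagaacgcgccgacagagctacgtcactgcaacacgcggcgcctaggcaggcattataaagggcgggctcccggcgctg
Vcl: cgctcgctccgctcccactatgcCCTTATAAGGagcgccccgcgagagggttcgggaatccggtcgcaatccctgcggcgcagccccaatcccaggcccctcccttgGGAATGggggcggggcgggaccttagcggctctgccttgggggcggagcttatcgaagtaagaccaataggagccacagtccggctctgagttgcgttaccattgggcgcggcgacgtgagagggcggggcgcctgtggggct
Each of the 3 held GGAATG once. Vcl held 1 CArG box of the strict form, Acta2 held 2 of the looser form, and Ccn1 held neither form in this window. Over the 12567 tested genes with promoter sequence at hand, 12.9% held GGAATG, 1.4% the strict box and 9.58% a box of either form. The shares were 12.5%, 1.98% and 7.25% among the negative genes, and 11.6%, 2.1% and 9.14% among the positive genes. These shares were near those of all genes, and no test was made.

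Other negative members of the lists were feedback inhibitors of ERK, adhesion proteins and chaperones of the endoplasmic reticulum. Of 15 genes of the EGF and FGF receptor list, 2 passed: Spred1 at -0.50 ± 0.09 (SE), adjusted p = 0.0104, and Dusp6 at -0.40 ± 0.07 (SE), adjusted p = 0.0113. That is 13.3% beside 7.35% of all genes. Of the 15 estimates, 9 were positive and 6 negative, with a median of 0.03. Dusp6 stood at 735 and 754 CPM in CH, 573 and 553 in CV, 652 and 647 in GH and 648 and 652 in GV. The 4 G libraries of Dusp6 were almost level, with CH above them and CV below. The chemokine Ccl2 passed at -1.39 ± 0.37 (SE), adjusted p = 0.0407, alone among 11 genes of NF-kB, chemokines and adhesion, and DESeq2 called 0 of them. Itgb1, the beta-1 integrin, had an interaction of -0.49 ± 0.08 (SE), adjusted p = 0.00961 in edgeR's test. It was the one of 11 matrix and integrin genes to pass. For the list of Ccl2 and for that of Itgb1 this is 9.09%, near the 7.35% of all genes. Of 14 genes of the unfolded protein response, the chaperones Hspa5 at -0.36 ± 0.07 (SE), adjusted p = 0.0191 and Hsp90b1 at -0.33 ± 0.07 (SE), adjusted p = 0.0214 passed. That is 14.3% beside 7.35% of all genes. Most of that list went the other way: 10 of the 14 estimates were positive, and the median was 0.06.

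In 3 further lists 1 member passed, a share near the 7.35% of all genes. They were Gja1, the astrocyte gap junction protein connexin 43, at -0.34 (9 astrocyte genes tested), the cystine transporter Slc7a11 at -0.46 (11 genes of oxidative stress) and the factor Klf9 at -0.50 (10 genes of quiescence). Of 15 G proteins and RGS regulators, 13.3% were called, beside 7.35% of all genes. Gnai3, a Gi alpha subunit, was at -0.35 and Rgs16, which speeds the turn-off of Gi and Gq, at -0.48. Of these 15, 0 passed with the replicate block or without CH2, CV1, CV2, GH1 or GH2. The adjusted p-values of these 5 genes in edgeR's test ranged from 0.0191 for Klf9 to 0.048 for Rgs16.

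The positive genes had a different shape: their median, centred on the level means, was -0.01 in CH, 0.23 in CV, 0.04 in GH and -0.24 in GV. GV was the farthest level for 393 of the 694 and CV for 204. Here too the shares over all genes tested are not given, so no excess is shown. They included short, abundant transcripts. Their median exon length was 1351 bases, against 4745 for the negative genes and 3055 for all genes tested. By annotation 66 of the 694 were pseudogenes, against 8 of the 602 negative genes, and counts of such near-identical copies are uncertain. The share of pseudogenes over all genes tested is not given here, so these counts show no excess or deficit against it.

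Most cytosolic ribosomal protein genes were positive. Of 78 tested, 52 were positive and 0 negative (66.7%), all 78 estimates were above 0 with TMM and with median-ratio factors, and the median was 0.43. The count was 31 without CH2, 4 without CV2, 3 without GH1, 16 without GH2 and 33 without GV1. The median H minus V was -0.07 in C and 0.36 in G. Rplp2 stood at 338 and 335 CPM in CH, 404 and 422 in CV, 354 and 377 in GH and 247 and 274 in GV, with an interaction of 0.78 ± 0.09 (SE), adjusted p = 0.00168. For Rplp2, a protein of the ribosomal stalk, both pairs were apart and in opposite directions. Rpl41 stood at 1152 and 1182 CPM in CH, 1285 and 1306 in CV, 1076 and 1052 in GH and 752 and 789 in GV, with an interaction of 0.62 ± 0.07 (SE), adjusted p = 0.00169. Rps26 had an interaction of 0.71 ± 0.09 (SE), adjusted p = 0.00345. This group, like the next, was chosen after values were seen.

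Nuclear-encoded subunits of oxidative phosphorylation were positive for 32 of 74 and negative for 0 (43.2%), with a median of 0.34. The count fell to 19 without CH1, 15 without CH2, 20 without CV1, 14 without GV1, 5 without GH2 and 1 without CV2 or GH1, and was 52 without GV2. Cox8b, an isoform of a cytochrome c oxidase subunit known from muscle, was the subunit with the lowest p. It stood at 1.60 and 1.30 CPM in CH, 5.68 and 5.95 in CV, 3.71 and 4.28 in GH and 3.57 and 3.83 in GV. CH was low and the G libraries were level, so its pattern was not that of the ribosomal protein genes. Its interaction was 2.11 ± 0.27 (SE), adjusted p = 0.00304. Replication-dependent histone genes were positive for 9 of 16 (56.2%), with a median of 0.63. The count was 0 without CV2 or GH1, 1 without CH2, 2 without GH2, 5 without CV1 or GV1 and 16 without GV2. H3c13 stood at 250.4 and 211 CPM in CH, 307 and 346 in CV, 242 and 195 in GH and 132 and 175 in GV, with an interaction of 1.01 ± 0.18 (SE), adjusted p = 0.0124. The other 8 were H1f1, H1f3, H1f4, H1f5, H2ac18, H4c1, H4c2 and H4c4, at 0.46 to 0.81. Histone genes are near-identical copies of each other, so the split of reads among them is uncertain.

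The other leading positive genes had low values in GV as well. Lgals1 encodes galectin-1, a lectin made by stem cells of this zone. Lgals1 stood at 999.7 and 1003 CPM in CH, 1272 and 1362 in CV, 1251 and 1157 in GH and 889.7 and 973 in GV, with an interaction of 0.77 ± 0.09 (SE), adjusted p = 0.00168. Mif, a secreted cytokine, stood at 168 and 173 CPM in CH, 194 and 207 in CV, 186 and 175 in GH and 128 and 139 in GV, with an interaction of 0.67 ± 0.09 (SE), adjusted p = 0.00472. Dctpp1, which breaks down dCTP, had 0.84 ± 0.10 (SE), adjusted p = 0.00233, and Taf10, a subunit of the general factor TFIID, 0.70 ± 0.09 (SE), adjusted p = 0.00446. Scarna13 is a small RNA of the Cajal body. It stood at 54.2 and 49.4 CPM in CH, 54.99 and 49.5 in CV, 42.6 and 41.1 in GH and 18.9 and 23.2 in GV. C was level and GV was the lowest, with an interaction of 1.004 ± 0.14 (SE), adjusted p = 0.00475. Of 48 tested 7SL, 7SK, spliceosomal and RNase RNAs, a list also chosen after its values were seen, 5 were positive and 0 negative. That is 10.4%, beside 7.35% of all genes called in either direction, and the list's median was 0.52. DESeq2 and limma-voom called 3 each; 2 passed without CH2, CV1, GH1 or GH2 and 3 without GV1. Many are near-identical copies, so their counts are uncertain. The pseudogene Gm11808 had 0.97 ± 0.12 (SE), adjusted p = 0.00244.

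**Figure D3:**
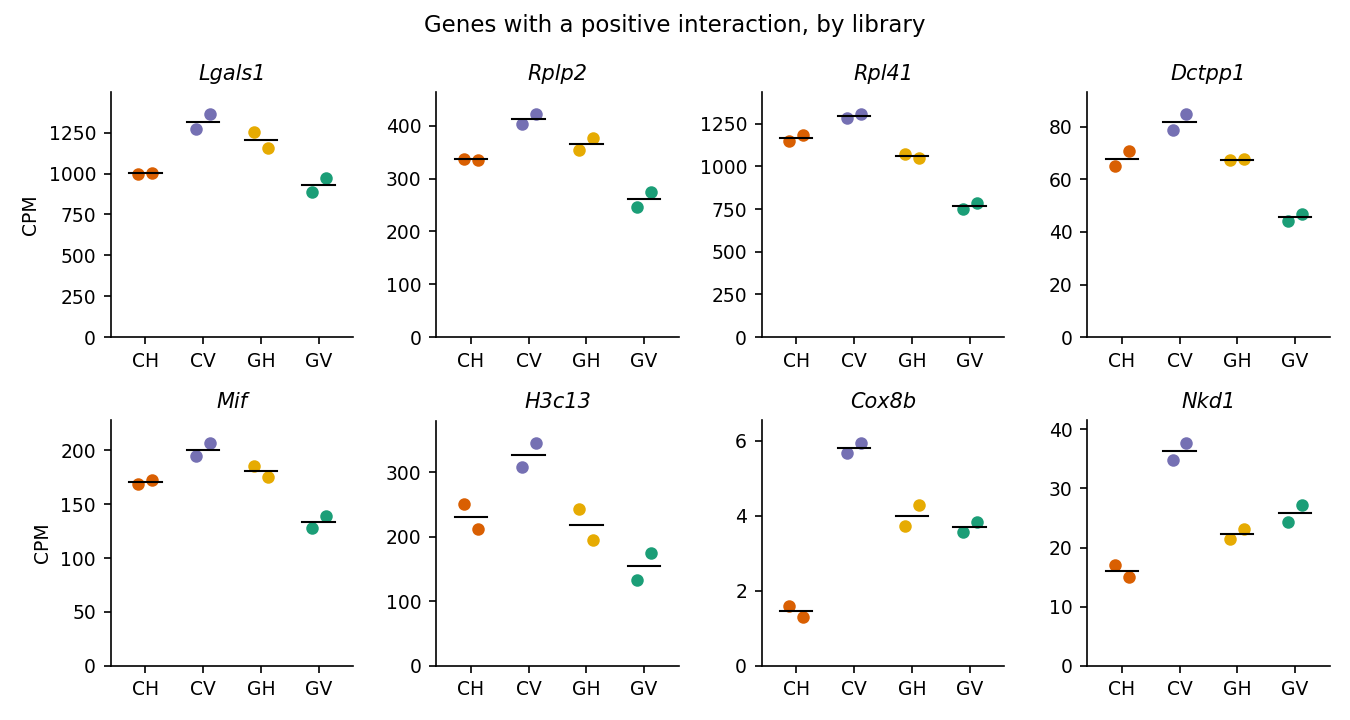
CPM of 8 genes with a positive interaction in each of the 8 libraries (points) by level, with the mean of the 2 libraries as a bar. GV is the lowest level for Lgals1, Rplp2, Rpl41, Dctpp1, Mif and H3c13, while CH is lowest for Cox8b and Nkd1.

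The composition of the libraries moved with these groups. Ribosomal protein genes took 4.77% and 5.18% of the reads in GV and 5.88% to 6.6% in the 6 other libraries. The 7SL RNAs took 1.49% and 1.64% in GV, 2.39% and 2.47% in GH and 3.13% to 3.72% in C. The H minus V difference in G fell with exon length (Spearman correlation over 15837 genes -0.40), and that in C did not follow it (0.04). In the shortest of 5 length bins, of 56 to 1460 bases, 11.6% of genes were positive and 0.568% negative; in the longest, 1.36% and 7.61%. With each library's trend on length taken out, 593 positive and 813 negative genes passed, and 916 of the 1277 called genes that have a length were among them. Of the ribosomal protein genes 26 then passed, of the oxidative phosphorylation subunits 7 and of the histone genes 4; their medians were 0.15, 0.05 and 0.35. Of the small RNAs 16 have a length, of which 0 passed in that fit, with a median of 0.14. The 4 negative targets of YAP and SRF still passed in that fit. Mitochondrial transcripts took 3.43% and 3.46% of the reads in GV and 2.36% to 3.28% elsewhere, and long noncoding RNAs 2.01% and 2.46% against 1.6% to 1.91%. The part of library composition in the result was not tested.

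**Figure D4:**
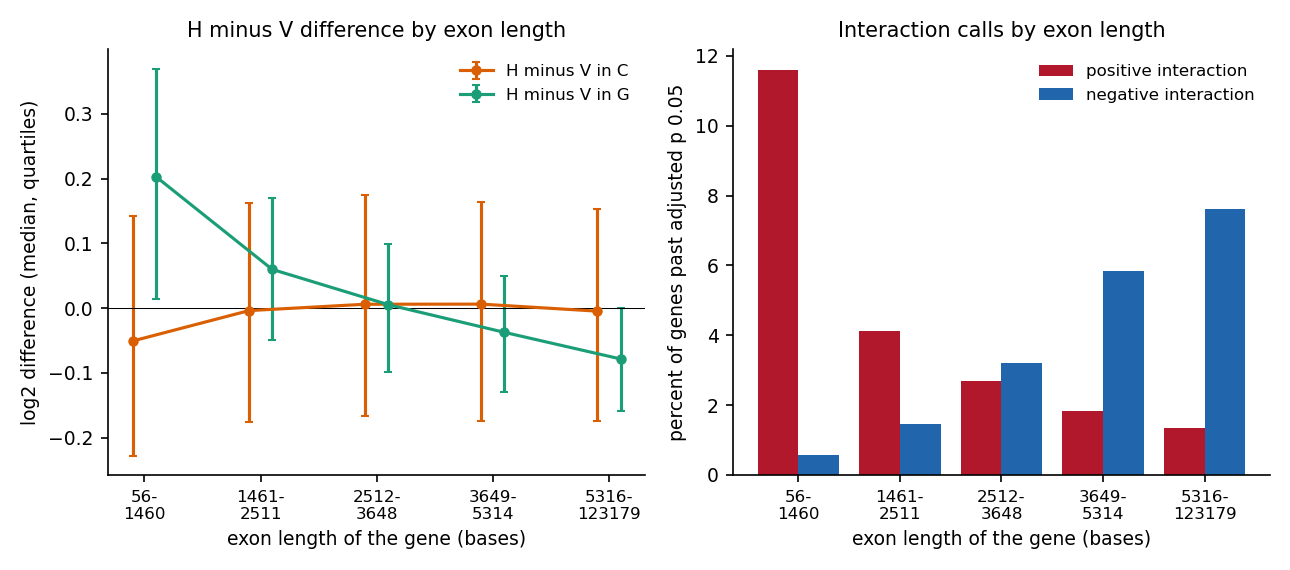
Left, median H minus V difference (log2, bars span the quartiles) in C and in G for genes in 5 bins of exon length in bases; right, percent of each bin past an adjusted p of 0.05 for the interaction. In G the median falls from 0.20 in the shortest to -0.08 in the longest bin, and in C it stays between -0.05 and 0.01.

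Of 9 oligodendrocyte lineage genes tested, 3 were positive: the factors Olig1 at 0.44 ± 0.08 (SE), adjusted p = 0.0134 and Olig2 at 0.25 ± 0.07 (SE), adjusted p = 0.0487, and Cspg4, the NG2 proteoglycan of progenitors, at 0.46 ± 0.11 (SE), adjusted p = 0.0259. Olig1 stood at 883 and 805 CPM in CH, 1176 and 1133 in CV, 953 and 953 in GH and 933 and 989 in GV. CV was the highest level and CH the lowest, and the G libraries were alike. Of the 9 estimates of the list, 5 were above 0 and 4 below, and 33.3% were called beside 7.35% of all genes. Olig1, Olig2 and Cspg4 made up most of the list's summed CPM. That sum was 1503 to 1600 CPM in CH, 2005 to 2026 in CV and 1719 to 1771 in G. Without CV2, GH1 or GH2, 0 of the 9 passed, and without CH2 or CV1, 1 did. In bulk RNA, fewer cells of a type and less RNA per cell cannot be told apart. In the neuroblast and interneuron list 20% of the genes tested were called, beside 7.35% of all genes. Of 10 neuroblast and interneuron genes, Gad1, which makes GABA, was positive at 0.38 ± 0.11 (SE), adjusted p = 0.0482, and Sp9, on few reads, at 1.93 ± 0.52 (SE), adjusted p = 0.0443; DESeq2 called 1 of the 10, and 0 were positive in each fit without 1 library. In the neural stem cell list 0 of 15 passed in edgeR's test, 2 had an unadjusted p under 0.05 and DESeq2 called 1; Slc1a3, a glutamate transporter of glia, came nearest at -0.25 ± 0.07 (SE), adjusted p = 0.0557. The Notch and the BMP lists had 0 of 12 each, with Notch1 at 0.40 ± 0.12 (SE), adjusted p = 0.0551 and Bmpr1a at -0.33 ± 0.11 (SE), adjusted p = 0.0782. At an unadjusted p under 0.05 there were 3 Notch and 2 BMP genes, and DESeq2 called 2 and 1. Over all genes tested, 4285 of 17644 had an unadjusted p under 0.05 in edgeR's test.

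Nkd1, a feedback inhibitor of Wnt signalling, was positive, the one called gene of 8 Wnt targets (12.5%, beside 7.35% of all genes). Nkd1 stood at 17.04 and 14.9 CPM in CH, 34.8 and 37.7 in CV, 21.5 and 23.2 in GH and 24.4 and 27.2 in GV. CV exceeded every other library and CH was lowest, and the interaction was 0.98 ± 0.14 (SE), adjusted p = 0.00513. Among 24 genes of cholesterol synthesis, 3 were positive and 1 negative, or 16.7% called beside 7.35% of all genes. At an unadjusted p under 0.05 in edgeR's test there were 17, beside 4285 of the 17644 genes tested. The positive genes included the mevalonate-pathway kinases Mvk at 0.49 ± 0.11 (SE), adjusted p = 0.0274 and Pmvk at 0.38 ± 0.10 (SE), adjusted p = 0.0391. Cyp51, the lanosterol demethylase, was negative at -0.31 ± 0.08 (SE), adjusted p = 0.0412. Of the 24 estimates of that list, 13 were above 0 and 11 below, with a median of 0.06. DESeq2 called 5 positive and 10 negative members, and leaving out CH2, CV1, CV2, GH1 or GH2 left 0. Of 10 LXR targets and efflux genes, 20% were called, beside 7.35% of all genes. Apoe, the main lipid carrier made by glia, was positive at 0.52 ± 0.11 (SE), adjusted p = 0.0223 in edgeR's test. So was Nr1h2, which encodes LXR beta, at 0.47 ± 0.12 (SE), adjusted p = 0.0391 in the same test. Apoe stood at 136 and 128 CPM in CH, 181 and 209.8 in CV, 209 and 188 in GH and 198 and 213 in GV. The CH libraries were low and the 6 others overlapped. Without CH2, CV2, GH1, GH2 or GV1, 0 of the 10 passed.

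In the S-phase and the mitosis lists 2 of 16 genes each were positive (12.5%, beside 7.35% of all genes). At an unadjusted p under 0.05 there were 8 and 7, beside 4285 of the 17644 genes. With the replicate block, and without CH2, CV2, GH1, GH2 or GV1, 0 passed in either list; without CV1, 0 and 1 did. Cdt1, which licenses replication origins, was positive at 0.46 ± 0.12 (SE), adjusted p = 0.0366, and Ccne1, cyclin E1, at 0.43 ± 0.11 (SE), adjusted p = 0.0347. In the mitosis list Aurkb was at 0.34 ± 0.09 (SE), adjusted p = 0.0377 and Cdc20 at 0.36 ± 0.10 (SE), adjusted p = 0.0428, with a list median of -0.01. Of the markers of other cell types tested, 0 of 1 microglial, 0 of 1 erythroid and 0 of 4 neuronal genes passed in edgeR's test, at an unadjusted p under 0.05 or in DESeq2, and of 2 mural and fibroblast genes Cspg4 passed. In the lists of glycolysis and hypoxia, interferon-stimulated genes, ependymal genes and endothelial markers 0 passed in edgeR's test or in DESeq2, and 1, 0, 1 and 0 had an unadjusted p under 0.05; the genes nearest to the threshold in the glycolysis, ependymal and endothelial lists were Pfkl at 0.31 ± 0.12 (SE), adjusted p = 0.134, Tekt1 at an adjusted p of 0.0607 and Flt1 at 0.348.

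**Figure D5:**
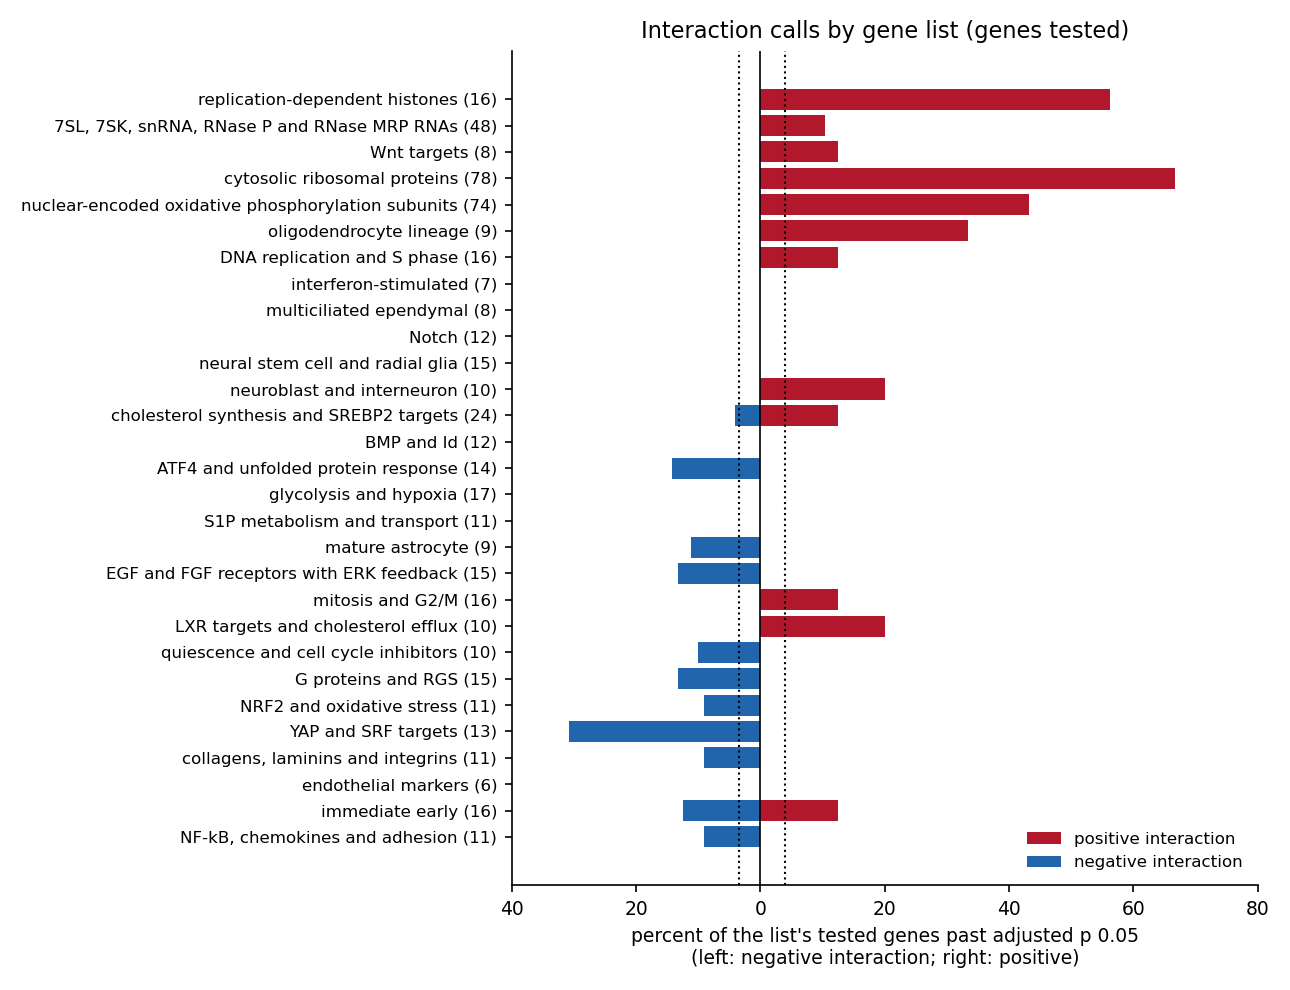
Percent of each list's tested genes (number in parentheses) past an adjusted p of 0.05, to the right for a positive and to the left for a negative interaction, with lists ordered by median interaction; dotted lines mark the shares over all genes, 3.93% and 3.41%. Ribosomal protein, histone and oxidative phosphorylation genes reach 66.7%, 56.2% and 43.2% on the positive side, and YAP and SRF targets 30.8% on the negative side.

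Of the 24 genes with the lowest p-values, 3 lay at loci that overlap another gene and had 0 reads in 1 level. Gm20716, on chromosome 2, had 5053 and 3931 reads in CH, 0 and 0 in CV, 3157 and 3937 in GH and 1151 and 2578 in GV. Its span holds those of Adnp, which had 1518 and 3451 reads in CH and 5376 and 6273 in CV, and of Dpm1, which had 612 and 849 and then 1707 and 1814. Summed over the 3 genes the reads were 7183 and 8231 in CH, 7083 and 8087 in CV, 7952 and 7298 in GH and 8956 and 7721 in GV. The absence of Gm20716 in CV thus went with more reads at the genes it overlaps. Gm14230 had 0 reads in GV1 and GV2 and 88 to 159 in the other libraries, while the overlapping LOC115486128 had 201 and 136 in GV and 43 to 86 elsewhere. Gm36559, within Tatdn1, had 0 reads in CV1 and CV2 and 123 to 219 elsewhere; Tatdn1 had 591 and 744 in CV and 727 to 915 elsewhere. No fold is given for these 3 genes, since the fitted value would depend on the prior count.

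Of the 24 genes with the lowest p-values, 12 in each direction, 22 passed in every alternative that gave them an adjusted p. Gm20716 did not pass with limma-voom. Gm14230 and Gm36559, which had 0 reads in 1 level, were among the 22. The alternatives refit all or most of the libraries that chose these genes. Passing again or keeping a sign is therefore not independent support. Outside those 24 genes, Nkd1 passed in every alternative as well. The other called list members named here that are not among the 24 each failed to pass in at least 1 alternative. Of the 67 genes that passed and met the naming rule, 42 did not pass without GH1, 41 without CV2, 40 without GH2, 37 without CH2, 24 without CV1, 20 without GV1, 10 without GV2 and 9 without CH1. DESeq2 lost 2 of the 61 it gave an adjusted p and removal of the length trend 8, and 0 changed sign in any alternative.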

How the data were processed

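Total RNA of 8 samples was sequenced by the submitters from stranded libraries depleted of ribosomal RNA. Per the submitters' processing notes, the tools were HISAT2 2.1.0, StringTie 2.1.3b, Trimmomatic and bcl2fastq 2.20.0, and the build was GRCm38/mm10. The deposited table holds raw read counts of 45777 genes, made by the authors per the file headers; 16 of its 24 value columns (FPKM and TPM) were not used. How reads of overlapping genes were assigned is not given in the sources used here.

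Genes were filtered with filterByExpr (17644 tested), scaled by TMM and fitted with edgeR 4.0.16's quasi-likelihood test in R 4.3.3, with 1 term per level and 4 residual degrees of freedom; adjusted p-values are Benjamini-Hochberg over all genes tested. The standard error is the log2 difference divided by the square root of F. Named genes were the 12 with the lowest p in each direction and the called members of the lists, or a list's lowest p where 0 were called. Some genes that met this rule are not reported here. Exon lengths came from GENCODE, and matched 89.8% of the genes tested. The scripts were tested on simulated data. Alternatives used median-ratio factors, DESeq2 1.42.0, limma 3.58.1 with voom, other filters, a replicate block, each library left out and, chosen after seeing the data, removal of a trend on length. The genes and lists were chosen with earlier results of these data known, and the ribosomal protein, oxidative phosphorylation and small RNA lists after their values were seen.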

Additional observations from a re-analysis of the deposited data

Results flagged for a closer look

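The H minus V difference was not the same in C and G for 1296 genes by the interaction term of edgeR's quasi-likelihood test, and the called genes named above were among them. Their log2 interactions are given together here. Among the positive genes the values were Cox8b 2.11, Sp9 1.93, H3c13 1.01, Scarna13 1.004, Nkd1 0.98, Gm11808 0.97, Dctpp1 0.84, H4c2 0.81, Rplp2 0.78, Lgals1 0.77, H4c1 0.74, H2ac18 0.73, H4c4 0.72, Rps26 0.71, Taf10 0.70, Mif 0.67, Ier3 0.65 and Rpl41 0.62. The remaining positive genes had H1f1 0.57, Myc 0.55, H1f4 0.54, H1f3 0.52, Apoe 0.52, Mvk 0.49, Nr1h2 0.47, Cspg4 0.46, Cdt1 0.46, H1f5 0.46, Olig1 0.44, Ccne1 0.43, Gad1 0.38, Pmvk 0.38, Cdc20 0.36, Aurkb 0.34 and Olig2 0.25. Among the negative genes the values were Ptgs2 -3.31, Acta2 -2.13, Crispld2 -1.99, Tm4sf1 -1.70, Ccl2 -1.39, Ccn2 -1.21, Ccn1 -0.97, Mfap3l -0.94, Akap12 -0.93, Hbegf -0.92, Sdc4 -0.90, Egr1 -0.85, Kitl -0.78, Cp -0.67 and Fos -0.55. The remaining negative genes had Klf9 -0.50, Spred1 -0.50, Itgb1 -0.49, Rgs16 -0.48, Slc7a11 -0.46, Dusp6 -0.40, Vcl -0.38, Hspa5 -0.36, Gnai3 -0.35, Gja1 -0.34, Hsp90b1 -0.33 and Cyp51 -0.31. No value is given for Gm14230, Gm20716 and Gm36559, which had 0 reads in 1 level. Groups of 2 libraries were too small for a test of single outlying libraries.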

How the results depend on the processing

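The interaction count of 1296 (694 positive, 602 negative) became 2022 with DESeq2 (1145 negative), 2001 (1075 positive, 926 negative) for genes of at least 1 CPM in every library and 1865 with no low-count filter (1087 negative). The share of positive calls was 53.5%, and 43.9%, 43.4%, 41.7% and 42.2% with median-ratio factors, DESeq2, no filter and the length trend taken out. H minus V in G, 226 genes, became 668 with DESeq2, 356 with limma-voom, 575 with no filter and 602 at 1 CPM. With the length trend taken out it became 35. Leaving out 1 library gave 66 to 1510 interactions, 24 to 857 positive and 33 to 708 negative, 294 to 2241 for H minus V in C and 4 to 855 in G. The G minus C difference of S1pr1 ranged from -0.011 (without CV replicate 2) to 0.18 (without CV replicate 1). With a replicate block, 873 genes passed (393 negative) and 137 for H minus V in G; with the block and the length trend taken out, 421 were positive and 26 passed in G. Correlations of the deviations of same-numbered libraries ran from -0.05 to 0.01 over all genes tested and from -0.12 to 0.16 over those with a mean log2 CPM over 3, not above 0.1 for every pair of levels, so the numbers were not taken to pair the samples; of 67 calls chosen by the naming rule the block left 51. All 1296 genes had 1 sign in the fits that tested them, except 8 of 1277 with the length trend taken out. The cause of these changes was not tested.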
